A study of Mus musculus with 27 samples.

Results

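Constitutively open regions are named here as the stretches of chromatin whose mean accessibility was high and within a set ratio in the 8 groups analysed of a cardiac reprogramming experiment. They were chosen by their CPM, the count of a region divided by all counts of its library in the table and multiplied by 1000000. The mean CPM of the 3 libraries was taken in each of 8 groups. A region was a member when its smallest group mean was at least 50 CPM and its largest group mean was at most 1.6 times the smallest. This rule gave 1763 members of 30815 regions (5.72%). All levels, ratios and fold changes between groups at the members are therefore descriptions of what was chosen.

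The assay was ATAC-seq, in which a transposase cuts and tags accessible DNA. The cells were an immortalised line of neonatal mouse cardiac fibroblasts (strain Cd-1) with large T antigen and an alpha-MHC-GFP reporter, harvested without sorting at day 2 after retroviral infection. The Fibroblast group carried dsRed, a fluorescent protein, and had no chemical treatment. The G group carried Gata4, the M group Mef2c and the T group Tbx5, and GM, GT, MT and GMT carried the pairs and the full set. All 7 factor groups also had sb431542, an inhibitor of TGF-beta signalling, and xav939, an inhibitor of Wnt signalling. Factors and inhibitors therefore cannot be told apart in a comparison with Fibroblast. The 3 samples of dsRed cells with both inhibitors are not analysed here. The replicates are described as biological, but what sets them apart is not given, and the spread reported here is that between these samples. The cells share 1 immortalised line, and the infected share of the unsorted cells is not given in the sources used here.

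Gata4, Mef2c and Tbx5 are transcription factors of the developing heart that, expressed together, can turn fibroblasts towards a cardiomyocyte state. Most sites that such factors open or close are distal and specific to a cell type. Chromatin that is open in many cell types is typically found at promoters of widely expressed genes and at sites bound by the insulator protein CTCF. Because such sites stay accessible across conditions, they are often used as internal references in accessibility experiments. The regions here have coordinates of the mouse build mm9, and neither a genome nor gene models of mm9 were used here. Members are accordingly named by position, no gene, promoter or sequence is assigned to them, and the cell type of the line was not checked against marker genes.

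The 24 libraries held between 241394 counts (GMT replicate 1) and 1704896 counts (MT replicate 1), with a median of 662000. The library labelled GT replicate 1 went against its label over the 17480 regions with a mean of at least 10 CPM. There its Spearman correlation across regions was 0.720 to 0.722 with the other GT libraries and 0.835 to 0.948 with the G libraries. At the 1763 members the same values were 0.892 to 0.895 with GT and 0.824 to 0.953 with G. Without this library the rule gave 1707 members, of which 1697 were shared, and the median CPM of the members in GT was 156 in place of 158.

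The members were the most accessible end of the table. Their mean over the 8 group means ran from 56.8 to 985 CPM with a median of 159 CPM, against a median of 12.5 CPM over all regions. Per kilobase of region the medians were 532 CPM for members and 47.5 CPM for all regions. Of the 100 regions with the highest mean, 84 were members, and of the highest 500, 402 were. A further 1410 regions met the same floor but exceeded the ratio limit, and these serve as the list for comparison. Their median was 118 CPM, or 388 CPM per kilobase.

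The members' share was larger at higher levels of accessibility. Among regions with a mean of 50 to 100 CPM, 339 of 2470 (13.7%) were members. The share was 48.8% (796 of 1632) from 100 to 200 CPM and 77.1% (529 of 686) from 200 to 400 CPM. Above 400 CPM it was 83.2% (99 of 119). The rule sets part of this order, since every group must reach the floor. The ratio limit also acts on counting error, which is larger at low counts, and its part was not tested.

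**Figure D1:**
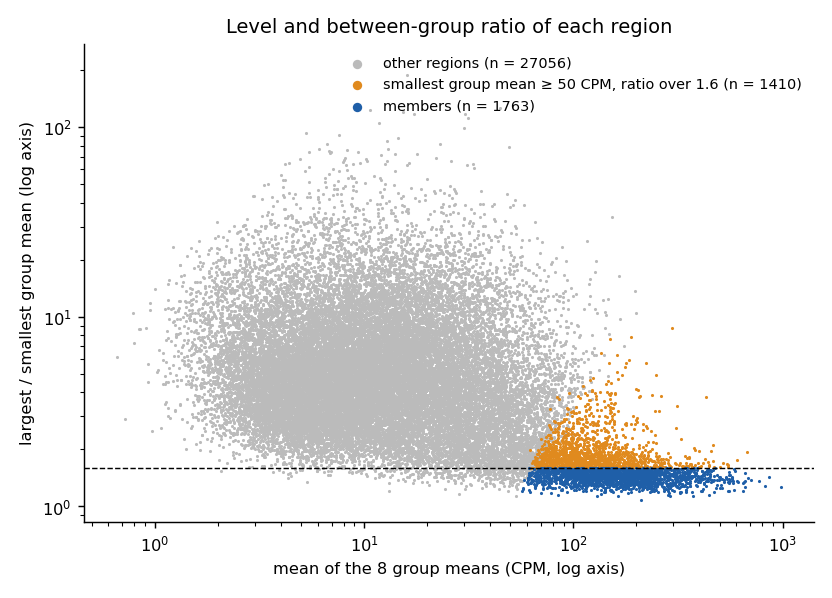
Each point is 1 region, with the mean of its 8 group means in CPM on the x axis and the ratio of its largest to its smallest group mean on the y axis, both logarithmic. The 1763 members lie below the dashed line at 1.6 and reach 985 CPM, the comparison list lies above it, and regions of low level reach the highest ratios.

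The region with the highest level was chr15:44259359-44259640, 282 bp wide, with a mean of 985 CPM and a ratio of 1.27. Replicates 1, 2 and 3 had 1090.0, 1112 and 1048 CPM for Fibroblast, 802, 1274 and 758 for G, 973, 1095 and 1109 for M, then 789.5, 838 and 1105 for T. They had 784, 1338 and 1006 CPM for GM, 846, 896 and 1094 for GT, 981, 1110.0 and 1046 for MT, then 1176, 588 and 788 for GMT. The Fibroblast libraries differed little among themselves, whereas the G, GM and GMT libraries each spread over a wide range, and all groups overlapped in part. Fibroblast had the highest group mean, 1083 ± 32.2 CPM (SD, n = 3), and GMT the lowest, 851 ± 299 CPM.

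The region chr8:4166019-4166413 came next, with a mean of 858 CPM over 395 bp and a ratio of 1.43. Replicates 1, 2 and 3 there had 878, 976 and 875 CPM for Fibroblast, 668, 868 and 620.4 for G, 1088, 995 and 1004 for M, then 824, 696 and 748 for T. It had 689, 919 and 831 CPM for GM, 751, 804 and 803 for GT, 841, 931 and 1021 for MT, then 1143, 745 and 886 for GMT. The M libraries were all above the libraries of Fibroblast, G, T, GM and GT, and 2 of the G libraries held the lowest values. The group means were 1029 ± 51.1 in M and 719 ± 131 in G (SD, n = 3).

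The third region in order of level, chr15:3945592-3946236, was 645 bp wide and had a mean of 821 CPM with a ratio of 1.28. Its group means went from 714 ± 176 CPM in G to 915 ± 76.7 CPM in M (SD, n = 3). The GMT libraries, at 887, 557 and 737 CPM, included the lowest of all 24 libraries. The next 3 were chr6:122258563-122259055 with a mean of 770.2 CPM, chr9:4309428-4309675 with 709 CPM and chr12:119540428-119540954 with 680.1 CPM. In all 3 the group mean was highest in Fibroblast, at 973, 875 and 791 CPM.

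The most even member was chr8:114464365-114464615, 251 bp wide, with a mean of 212 CPM and a ratio of 1.08. The 3 libraries had 184, 239.6 and 229 CPM for Fibroblast, 244, 187 and 207 for G, 206, 253 and 195 for M, then 233, 205 and 187 for T. They had 237, 201 and 218 CPM for GM, 232, 206 and 188 for GT, 214, 195 and 201 for MT, then 191, 186 and 242 for GMT. No group stood apart, and the range of 184 to 253 CPM over all libraries was wider than the range of 203 to 219 CPM over the group means. The second, chr8:72520532-72520869, had a mean of 290.4 CPM and a ratio of 1.13. Its libraries had 253, 301 and 340.3 CPM for Fibroblast, 291, 215 and 331 for G, 304, 334 and 252 for M, then 329, 355 and 225 for T. Its libraries further had 334, 248 and 271 CPM for GM, 262, 369 and 228 for GT, 321, 284 and 313 for MT, then 191, 341 and 279 for GMT. Its group means stayed between 270.1 ± 75.7 CPM in GMT and 306 ± 19.3 CPM in MT, although single libraries went from 191 to 369 CPM.

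The next 4 by evenness were chr6:21899213-21899687, chr4:147413106-147413382, chrX:34650189-34650442 and chr4:15885360-15885926. Their ratios were 1.13 to 1.15, and their means were 375, 164, 130.3 and 283 CPM. In the first 3 the libraries of every pair of groups overlapped, and in the last the GT libraries were all below those of Fibroblast and MT.

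**Figure D2:**
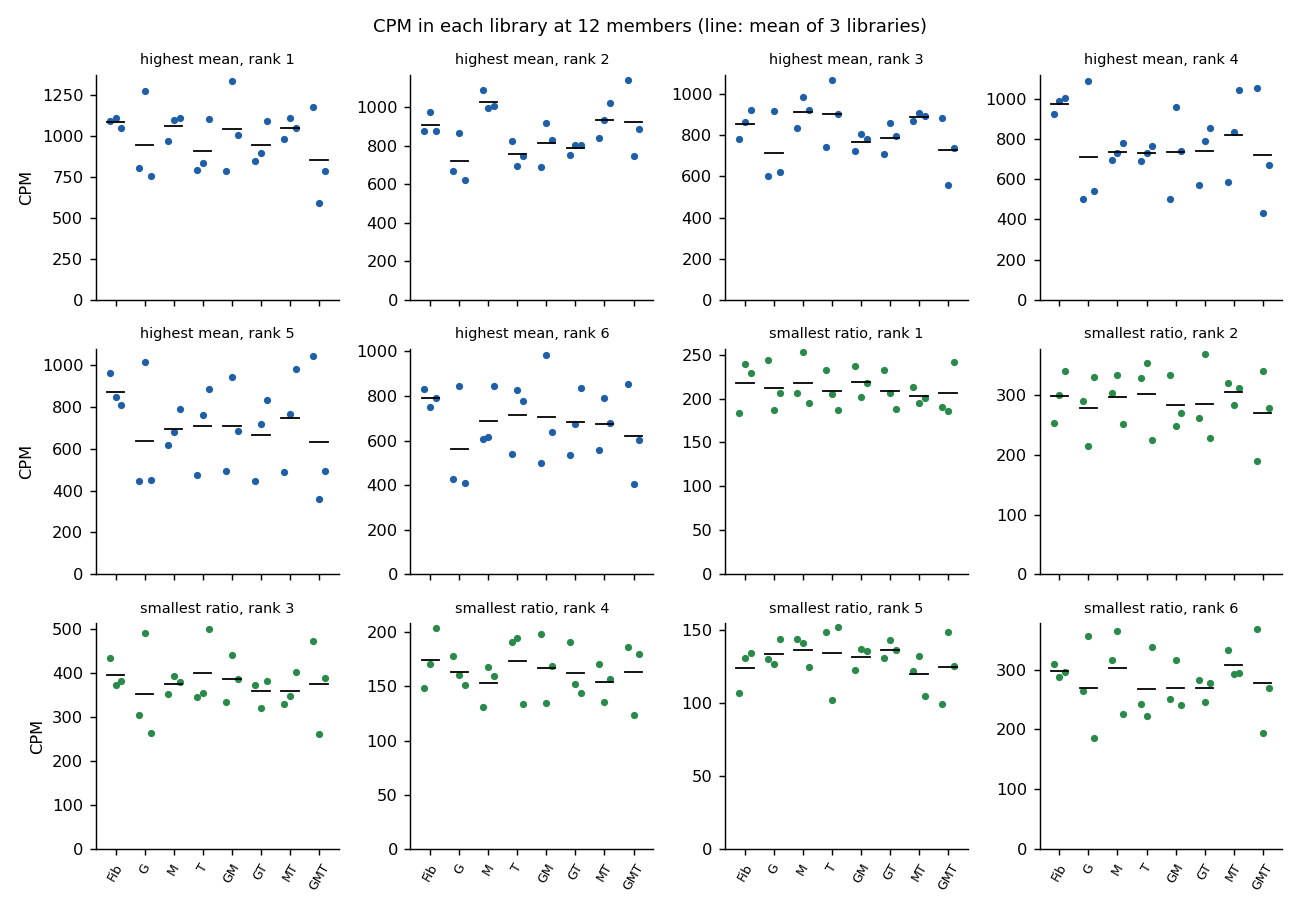
CPM in each of the 24 libraries at the 6 members of highest mean and the 6 of smallest ratio, by group on the x axis, with a line at the mean of 3 libraries. At chr15:44259359-44259640 the libraries ran from 588 to 1338 CPM, and at chr8:114464365-114464615 from 184 to 253 CPM.

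The thresholds cut through a continuous range. Just inside the ratio limit lay chr10:128240884-128241088, chr4:147314931-147315134 and chr9:50467617-50467965, with ratios of 1.5999, 1.5997 and 1.5993. Just outside lay chr6:31166585-31166959, chr8:86590968-86591394 and chr10:74674599-74674802, with ratios of 1.6002, 1.6003 and 1.6003. Just above the floor, the smallest group means were 50.11 CPM at chr15:102341122-102341352, 50.14 CPM at chr15:78706811-78707179 and 50.24 CPM at chrX:132277087-132277289. Just below it they were 49.99 CPM at chr2:118366654-118366856, 49.86 CPM at chr7:137951168-137951580 and 49.83 CPM at chr12:87210361-87210718. Over all members the ratio had a median of 1.44, with quartiles at 1.36 and 1.52, and in the comparison list the median was 1.82.

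For contrast, the region of the comparison list with the largest ratio, chr8:35160316-35161324, had a ratio of 8.71. Its libraries had 116, 124 and 125 CPM for Fibroblast, 293, 417 and 637 for G, 56.0, 42.7 and 76.7 for M, then 227, 306 and 237 for T. They had 236, 334 and 368 CPM for GM, 283, 786 and 459 for GT, 153, 292 and 210.2 for MT, then 352, 586 and 397 for GMT. The M libraries were all below those of every other group, and the G, GT and GMT libraries were mostly the highest.

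Single libraries varied more than group means. The ratio of the highest to the lowest of the 24 libraries had a median of 2.23 over members, 3.13 in the comparison list and 9.51 over all regions. All 24 libraries were at 50 CPM or above in 1557 members (88.3%) and in 894 regions of the comparison list (63.4%). No member was at 0 in any library, and the lowest count of a member was 5, in GMT replicate 1, the smallest library. The number of members under 50 CPM ran from 7 in MT replicate 1 to 73 in GMT replicate 1.

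Replicates of 1 group were also somewhat closer at members than elsewhere. A limit on the ratio of group means passes such regions more readily, so the rule favours this. Level also differs between the lists, with medians of 159, 118 and 12.5 CPM for members, the comparison list and all regions. The part of level was not tested. The median over regions of the coefficient of variation between replicates was 16.2% for members, 19.4% for the comparison list and 45.1% for all regions. The biological coefficient of variation that edgeR estimated per region had medians of 0.206, 0.226 and 0.309. By group, the members' median coefficient of variation was lowest in M at 12.3% and highest in T at 20.2%.

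The tightest replicates by the median over groups were found at chr8:93400706-93401170, chr17:23908483-23908778 and chr14:54873628-54873865, with coefficients of 5.63%, 5.82% and 6.24%. At chr14:54873628-54873865 the libraries had 238, 249.5 and 268 CPM in Fibroblast, 227, 229 and 224 in M and 191, 174 and 200.1 in GMT. The GMT libraries were all below the Fibroblast and M libraries there. The loosest were chr19:12085408-12085639, chr6:138089901-138090192 and chr17:23330030-23330333, at 44.6%, 40.3% and 39.7%. At the last of these the libraries had 356, 301 and 237 CPM for Fibroblast, 96.1, 360.0 and 129 for G, 160.0, 166 and 287 for M, then 219.6, 198 and 329.8 for T. They had 119, 337 and 207 CPM for GM, 104, 191 and 308 for GT, 156, 309.8 and 301 for MT, then 348, 152 and 197 for GMT. Replicate 2 was the highest of G and of GM, and replicate 1 the highest of GMT. These were the libraries with the smallest totals of their groups.

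At part of the members, the libraries of a group differed in level along with their total counts. In each group the library with the smallest total was compared with the one with the largest. Both are libraries of 1 group, so this comparison does not use the group means of the rule. At 187 members (10.6%) the smallest library had the lower CPM in all 8 groups, and at 22 members (1.25%) it had the higher CPM in all 8. In the comparison list the corresponding numbers were 86 (6.10%) and 53 (3.76%). The same numbers were not taken over all regions. The median difference at those 187 members, averaged over groups, was -0.44 on the log2 scale, and at those 22 it was 0.46.

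Most members leaned to a lower level in the smaller library. The share of members that were higher in the smallest library was 18.8% in Fibroblast, 43.2% in G, 31.3% in M, 29.7% in T, 31.7% in GM, 38.1% in GT, 32.7% in MT and 51.6% in GMT. Outside GMT the comparison list leaned the same way but less, and in GMT both lists leaned slightly the other way. The shares of the comparison list were larger in every group. They ran from 30.9% in Fibroblast to 48.7% in GT, with 53.8% in GMT. Of the 6 members with the highest level, 5 went the other way, with the smallest library higher in 6 or 7 of the 8 groups. At chr9:4309428-4309675 the smallest library was higher in 7 groups, and the mean difference was 0.52. The even member chr8:72520532-72520869 had the smallest library lower in all 8 groups, by a mean of -0.41. The median width was 305 bp at the 187 members and 268 bp at the 22. In every group but GMT, members together also held a higher share of the counts in the largest library than in the smallest. These shares were 40.01% and 33.0% in Fibroblast, and 39.97% and 32.6% in T. Shifts of a whole library were not separated from depth, and the part that depth has in these differences was not tested.

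Members together held between 27.8% (GMT replicate 2) and 40.01% (Fibroblast replicate 3) of a library's counts, with a median of 33.3%. By library the shares were 33.0%, 34.8% and 40.01% for Fibroblast, 33.4%, 33.6% and 33.7% for G, 35.2%, 37.5% and 33.5% for M, then 32.6%, 39.97% and 33.6% for T. The other libraries held 36.2%, 33.2% and 33.2% for GM, 33.0%, 33.9% and 31.6% for GT, 32.9%, 31.2% and 30.5% for MT, then 31.7%, 27.8% and 29.3% for GMT. All 3 GMT libraries were below all 3 Fibroblast libraries, and Fibroblast replicate 3 and T replicate 2 stood above the rest.

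The mean share was 36.0% ± 3.62 (SD, n = 3) in Fibroblast and 29.6% ± 1.94 in GMT. Shares of 1 library have to add up, so a lower share at members goes with a higher share elsewhere. Regions with a mean under 50 CPM held 37.0%, 41.1% and 41.7% of the counts in the GMT libraries. In Fibroblast replicate 3 and T replicate 2 the same regions held 26.4% and 27.2%, the lowest of all libraries, while the comparison list held 22.5% and 22.4%, the highest. In the smallest library, GMT replicate 1, the 95% binomial interval (Wilson) of the members' share was 31.5% to 31.8%, which covers counting error only and is narrower than the spread between replicates.

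**Figure D3:**
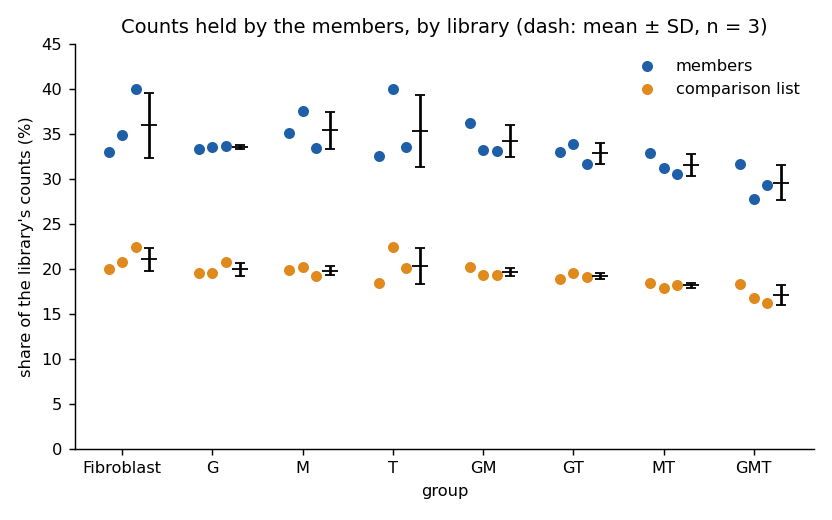
Share of each library's counts (%) held by the 1763 members and by the comparison list, by group, with 1 point per library and a dash with bars for the mean ± SD of 3 libraries. The GMT libraries, at 27.8% to 31.7% for members, lie below the Fibroblast libraries, at 33.0% to 40.01%.

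Within the limit of the rule the groups differed in level. The members' median CPM was 170.2 in M, 169 in T, 168 in Fibroblast, 164 in G, 162 in GM, 158 in GT, 146 in MT and 140.3 in GMT. Relative to each member's own mean over the 8 groups, the median on the log2 scale was 0.09 in M, 0.09 in T, 0.08 in Fibroblast, 0.04 in GM, 0.03 in G, -0.02 in GT, -0.11 in MT and -0.19 in GMT. The comparison list had the same sign in every group, with 0.07 in Fibroblast, -0.12 in MT and -0.23 in GMT. The lower medians of MT and GMT were therefore shared by both lists.

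GMT had the lowest group mean at 827 members (46.9%) and MT at 398 (22.6%). In the comparison list GMT was lowest at 38.4% of regions and over all regions at 13.8%. Fibroblast was highest at 470 members, T at 456 and M at 352, whereas GMT was highest at 28. Without the library labelled GT replicate 1, GMT was lowest at 773 of 1707 members and GT at 221, in place of 93 with it. Scaling libraries by TMM, which sets aside regions that differ strongly, in place of total counts, gave medians of 0.19 in T, 0.11 in Fibroblast, 0.08 in M, 0.01 in G, -0.01 in GM, -0.05 in GT, -0.11 in MT and -0.23 in GMT. On that scale T was the highest group in place of M, GM turned sign, and GMT was again the lowest.

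**Figure D4:**
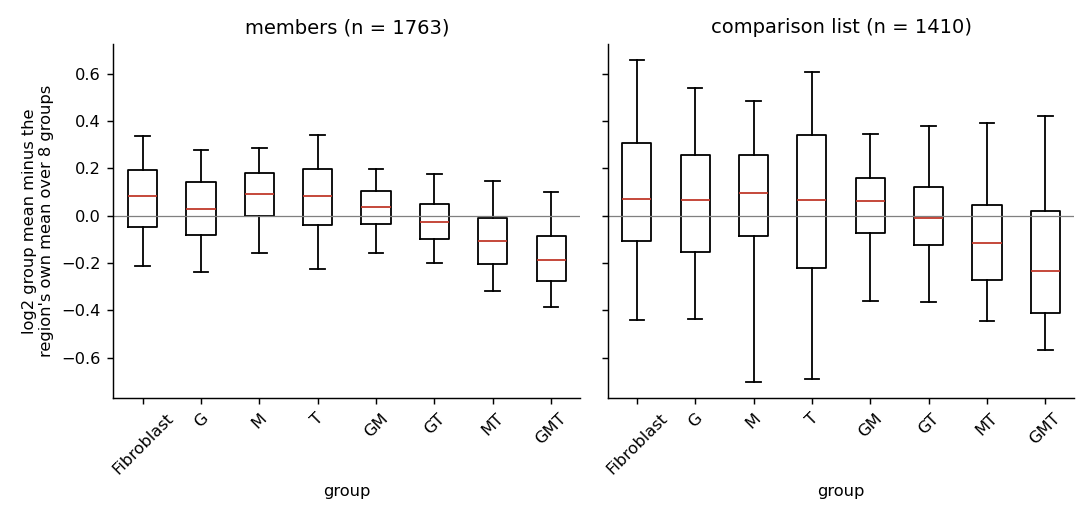
For members and for the comparison list, the log2 group mean minus the region's own mean over 8 groups, as boxes (quartiles, median in red) with whiskers from the 5th to the 95th percentile. The median of members goes from 0.09 in M to -0.19 in GMT, and the comparison list follows the same order at the low end.

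A count model was fitted to all regions that passed a filter on low counts, 20494 of them, and all 1763 members passed it. Regions with a Benjamini-Hochberg adjusted p under 0.05 by edgeR's quasi-likelihood test are called. Because the rule limits the same differences, few calls at members are built into the choice, and nothing is read from the counts that follow. In G against Fibroblast 15 members were called, all lower, where 15.7% of all regions were called in either direction and 6.07% lower. In M none of the 1763 members was called, where 16.1% of all regions were, and 44 members had an unadjusted p under 0.05. DESeq2 called 1 member in M, and a fit of only M and Fibroblast called 78. In T 15 were called, 14 higher and 1 lower, where 25.1% of regions were called, 14.5% higher and 10.6% lower.

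The pairs had few calls too. In GM 3 members were called, all lower, beside 12.2% of regions in either direction and 3.75% lower. In GT there were 8, all lower, beside 18.9% and 5.81% lower. In MT there were 12, all lower, beside 24.7% and 7.2% lower. GMT had the most, with 191 members (10.8%) called, all lower, beside 33.5% of regions in either direction and 10.5% lower. The members' median log2 difference in GMT was -0.33, against -0.41 in the comparison list and 0.09 over all regions tested. In the other 6 comparisons with Fibroblast the members' median lay between -0.21 (MT) and 0.08 (T). These medians moved with single libraries. Without Fibroblast replicate 1 the median was -0.42 in MT, -0.33 in GT and -0.08 in T. Without Fibroblast replicate 3 it was -0.07 in MT, -0.01 in GT and 0.22 in T, and without T replicate 2 that of T was -0.16. These 7 comparisons share the Fibroblast libraries, and 1544 members were called in none of them, 199 in 1 and 20 in more than 1. Without Fibroblast replicate 3, the library with the highest share of counts in members, 4 members were called in GMT, and without Fibroblast replicate 1, 457 were. When the library labelled GT replicate 1 was left out, the members called numbered 2 in GT, 8 in T and 203 in GMT.

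Comparisons among several groups gave few calls as well. Averaged over the 7 factor groups against Fibroblast, 46 members were called, all lower, beside 20.9% of regions in either direction and 10.6% lower, and without Fibroblast replicate 3 the number was 0. The average addition of Gata4 to cells with other factors had 21 calls at members, 1 higher and 20 lower, beside 22.2% of regions, 15% higher and 7.25% lower. That of Mef2c had 20, all lower, beside 20.8% in either direction and 4.58% lower. That of Tbx5 had 16, all lower, beside 26.2% and 5.86% lower. Leaving out the library labelled GT replicate 1, these 3 numbers were 13, 18 and 24. A test for any difference among the 8 groups called 28 members and 63% of regions, and among the 7 factor groups it called 15 members and 56.9% of regions.

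The fit also gave a standard error for each member. The median standard error of a log2 difference from Fibroblast was 0.25 in G at members, 0.28 in the comparison list and 0.50 over all regions.

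Single members are shown for the averages, by the largest difference among those called. Under the average addition of Mef2c, chr8:93400706-93401170 (465 bp) differed by -0.44 ± 0.11 (SE) on the log2 scale (call lost under 2 of 33 alternatives). Its libraries had 251, 311 and 310.4 CPM for Fibroblast, 338, 337 and 304 for G, 232, 223 and 215 for M, then 267, 304 and 315 for T. They had 244, 241 and 226 CPM for GM, 326, 359 and 329.5 for GT, 279.8, 287 and 285 for MT, then 290.0, 169 and 202 for GMT. All M and GM libraries were below all Fibroblast, G, T and GT libraries, and 2 of the 3 GMT libraries were too. The MT libraries lay within the range of the T libraries, with means of 284 ± 3.90 and 295 ± 25.5 CPM (SD, n = 3). The GM libraries were all below the G libraries, and the GMT libraries all below the GT libraries. The rule used these group means, so this describes a chosen region. The group means went from 220.3 ± 62.6 CPM in GMT and 223 ± 8.58 in M to 338 ± 18.4 in GT (SD, n = 3). The other member named by the same order, chr10:128240884-128241088, differed by -0.49 ± 0.15 (call lost under 4 of 33 alternatives). Its means were 77.8 ± 19.2 CPM in GM and 115.5 ± 7.54 CPM in G (SD, n = 3). They were 80.2 ± 12.2 CPM in GMT and 125 ± 26.02 CPM in GT, and 81.8 ± 13.8 CPM in MT and 88.6 ± 16.7 CPM in T.

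For Gata4 the one called member that was higher was chr1:99873606-99873971, 366 bp wide, with an average difference of 0.40 ± 0.13 (SE). Its libraries had 293, 261 and 350.3 CPM for Fibroblast, 224, 300.4 and 218 for G, 229, 222 and 202 for M, then 194, 245 and 239 for T. They had 262, 339 and 325 CPM for GM, 273, 362 and 362 for GT, 212, 294 and 313 for MT, then 452, 291 and 299 for GMT. The GMT and GT means were the highest and the M and T means the lowest. All 3 libraries of GT and of GMT were above all libraries of M and T. Of the pairs that this average uses, GM was above M and GT above T without overlap. The GMT and MT libraries overlapped. In Fibroblast, which has no factor, 2 of the 3 libraries were above the lowest GMT library, so those groups overlapped. The lowest differences for Gata4 were -0.49 ± 0.15 at chrX:13423562-13423823 and -0.47 ± 0.16 at chr6:11857669-11857957. The call at chr1:99873606-99873971 was lost under 15 of 33 alternatives, among them leaving out T replicate 1 (0.33) or GMT replicate 1 (0.32), and the other Gata4 calls were lost under 7 and 13.

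For Tbx5 the lowest were -0.50 ± 0.17 (SE) at chr11:59005303-59005618 and -0.44 ± 0.16 at chr9:45636416-45636804. At chr11:59005303-59005618 the mean was 105 ± 9.46 CPM in M and 66.7 ± 15.1 CPM in MT (SD, n = 3). The libraries had 114, 94.99 and 107 CPM in M and 81.5, 67.1 and 51.4 in MT, without overlap. They overlapped between G, with 92.5, 75.1 and 119 CPM, and GT, with 95.05, 83.9 and 51.8, and between GM, with 124, 73.7 and 111, and GMT, with 49.7, 79.5 and 70.8. Both calls for Tbx5 were lost under some of the 33 alternatives, 5 at the first region and 12 at the second.

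Across all 7 factor groups the lowest were -0.57 ± 0.17 (SE) at chrX:20527791-20527994 and -0.56 ± 0.16 at chr7:63305421-63305674. The latter had 526, 555 and 709.7 CPM for Fibroblast, 345, 489.5 and 321 for G, 430.3, 458 and 342 for M, then 384, 489 and 431 for T. It had 348, 569.8 and 407 CPM for GM, 353, 457 and 400.1 for GT, 375, 396 and 561 for MT, then 526, 317 and 380.4 for GMT. Fibroblast was the highest group there, at 597 ± 98.6 CPM (SD, n = 3), but 1 library of GM and 1 of MT reached into its range. Without Fibroblast replicate 3 the difference was -0.36 and no longer called. The call there was lost under 2 of 32 alternatives. That at chrX:20527791-20527994 was lost under 4, among them leaving out Fibroblast replicate 2 or 3. Factor groups and Fibroblast differ in the inhibitors as well, which cannot be told apart from the factors here.

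Width and position were not used by the rule. Members were 201 to 1120 bp wide with a median of 292 bp and covered 581032 bp, 6.75% of the bases in the table. The comparison list had a median of 296 bp and all regions 234 bp. Regions of exactly 201 bp, the smallest width in the table, made up 3.46% of members (61), 2.91% of the comparison list and 17.9% of all regions. Members of at least 500 bp numbered 195 (11.1%), against 12.8% of the comparison list and 5.03% of all regions. The members' widths were thus close to those of other regions of high level.

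Within a range of level, members were narrower than all other regions of that range except at the top. These others can include regions that missed the floor in a group, unlike the comparison list. From 50 to 100 CPM the median width was 259 bp for members and 299 bp for the others. From 100 to 200 CPM it was 275 and 320 bp, and from 200 to 400 CPM 342 and 363 bp. Above 400 CPM it was 381 bp for 99 members and 305 bp for the 20 others.

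The widest member was chr4:123594348-123595467, at 1120 bp and 235 CPM. Next came chr7:16683442-16684475, at 1034 bp and 457 CPM, and chr5:144578298-144579311, at 1014 bp and 131 CPM. Some of the narrowest regions had high levels. Among the members of 201 bp, chr16:42875641-42875841 had the highest mean, 607 CPM, followed by chr3:135101217-135101417 with 357 CPM and chr16:75767051-75767251 with 309 CPM. Counts in a fixed narrow region and in a wide one are on the same CPM scale, so their levels are compared per kilobase, at 3020.0 CPM for the first of these and 209 CPM for the widest member.

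Members lay on every chromosome except Y, which had 5 regions in the table. Their share of a chromosome's regions was highest on chromosome 7, at 8.77% (122 of 1391), and chromosome 8, at 8.19% (134 of 1637). It was lowest on chromosome 9, at 4.10% (60 of 1463). Among regions past the floor, 68.5% were members on chromosome 7, 60.6% on chromosome 8 and 45.8% on chromosome 9. The median level of all regions was also high on chromosomes 8 and 7, at 15.3 and 14.1 CPM. The members' median level was 208 CPM on chromosome 8 and 145 CPM on chromosome 7.

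Most members lay apart from each other, with a median distance of 180641 bp to the nearest other member. Of the 1763 members, 414 (23.5%) had another region of the table within 1000 bp, against 20.6% of the comparison list and 14.4% of all regions. Another member lay within 1000 bp of 172 members (9.76%), whereas 4.04% of the comparison list had another region of that list so near. At 10000 bp the order changed, with any region that near to 50.1% of members and 53.8% of the comparison list.

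Joining members within 1000 bp gave 1591 single members, 80 pairs and 4 groups of 3. The groups of 3 were chr5:24348220-24348935, chr11:83084787-83086045, chr13:23853052-23854426 and chr15:36722188-36723527. The closest pairs were 1 bp apart, chr11:83084787-83085151 with chr11:83085153-83085359 and chr9:117949367-117949577 with chr9:117949579-117949800. Neighbours this close share a stretch of chromatin and are not independent of each other. How regions were defined is not given in the sources used here.

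The members of a close pair did not always have the same order of groups. On chromosome 9 the first of the pair had its highest group mean in GMT, 183 ± 45.3 CPM, and its lowest in G, 129 ± 17.1 CPM (SD, n = 3). Its neighbour had its lowest in Fibroblast, 99.5 ± 14.0 CPM, and its highest in GM, 148 ± 14.3 CPM. The pair on chromosome 11 had means of 68.9 and 76.5 CPM, with the lowest group T in the first and GT in the second.

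Regions near a member had lower ratios themselves. Of the 453 regions whose nearest other member was within 1000 bp, 172 (38.0%) were members and 77 were in the comparison list. The 281 others than members had a median ratio of 1.89 and a median level of 45.6 CPM. From 1001 to 10000 bp the median ratio of regions that were not members was 3.70 at 14.9 CPM, from 10001 to 100000 bp 4.55, and beyond that 4.64. Around regions of the comparison list the corresponding median ratio within 1000 bp was 2.10, and 24.6% of the regions there were members. Around both kinds of region the median level fell with distance as the median ratio rose. The part of level in the ratio was not tested.

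**Figure D5:**
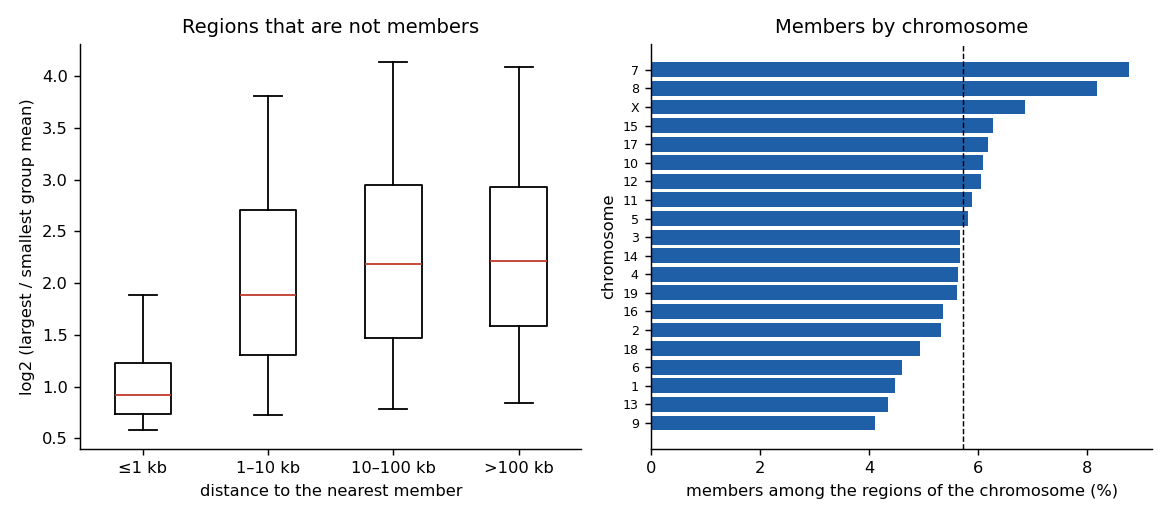
Left, the log2 ratio of the largest to the smallest group mean of regions that are not members, by distance to the nearest member; right, members as a percentage of the regions of each chromosome, with a dashed line at 5.72% for the whole table. Ratios are lowest within 1000 bp of a member (median 1.89 against 4.64 beyond 100000 bp), and chromosomes 7 (8.77%) and 8 (8.19%) have the highest shares.

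Along the genome, windows of 1000000 bp with at least 1 member numbered 988 of the 2421 with any region. The window with most members was chr10:80000001-81000000, with 13 members of 48 regions. The window before it, chr10:79000001-80000000, had 10 of 33, and chr17:56000001-57000000 had 10 of 24. These windows were chosen after their values were seen.

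Evenness was carried over only in part to libraries that had not been used to choose. When the rule was applied to replicates 2 and 3, it gave 911 regions, and in the 8 libraries of replicate 1 their median ratio was 1.69. The same regions were within a ratio of 1.6 in 39.1% of cases there, against 21.1% for regions past the floor but over the limit. Chosen without replicate 2, 1479 regions had a median ratio of 1.99 in the libraries of replicate 2, and 16.6% were within 1.6, against 8.69%. Chosen without replicate 3, 1417 had a median of 1.87 in replicate 3, and 20.3% were within 1.6, against 14.1%. The ratio in left-out libraries rests on 1 library per group, in place of a mean of 3.

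Most of the chosen regions met the floor again. This cannot be set beside the ratio, since members of the full rule had a median of 159 CPM, well above the floor. In the left-out libraries of replicates 1, 2 and 3, 91.6%, 90.2% and 93.7% of the regions chosen without them were at 50 CPM or above in all 8 groups. For regions past the floor but over the limit the shares were 85.3%, 79.5% and 87.2%.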

How the data were processed

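Raw counts of 24 libraries were deposited by the authors as 1 table of regions. Per the submitters' processing notes the authors used Bowtie2, Picard and featureCounts and the build mm9; versions, the making of regions and read filters are not given in the sources used here. Per the labels' protocols, 50000 cells and 12 PCR cycles were used per sample, with reads of 100 bp. The members, lists and tests were chosen with earlier results of these data known. CPM is the count divided by the column sum, times 1000000; it is relative to the counts in the 30815 regions. Counts were fitted in R 4.3.3 with edgeR 4.0.16 (filterByExpr with a minimum count of 10 and a minimum total of 15, TMM, quasi-likelihood F test, Benjamini-Hochberg adjustment over 20494 regions, group as the only term). The standard error of a log2 difference is its size over the square root of F. The test was tried on simulated data first. Other settings tried were no filter, RLE size factors, scaling by total counts, DESeq2 1.42.0, only the groups compared, the replicate number as a block, other limits in the rule, and leaving out each library or replicate number. Named regions are the 6 members of highest mean and 6 of smallest ratio, 3 on each side of each threshold, the 3 widest, narrowest, closest, tightest and loosest, the 2 called with the highest and lowest difference for each average, and the 3 regions of the comparison list with the largest ratio. The comparison of the smallest with the largest library of a group was added after seeing the data. Planned sequence features, gene lists and marker genes were not used.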

Additional observations from a re-analysis of the deposited data

How the results depend on the processing

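The number of members, 1763, was 1022 with RLE size factors in the rule, 1398 with TMM (1368 shared) and 2744 at a ratio limit of 2. It ran from 1439 to 1954 with 1 library left out and from 911 to 1479 with 1 replicate number left out. The members' share of all counts, 33.3%, was 26.6% with TMM, 19.5% with RLE, 26.9% with medians of replicates, 24.2% at a ratio limit of 1.5, 47.4% at a limit of 2 and 37.1% over the 7 factor groups, 26.8% to 36.1% with 1 library left out, and 16.8%, 27.3% and 28.0% without replicates 1, 2 and 3. The median width stayed at 288 to 300.0 bp under all 35 alternatives. The numbers of members called, on which nothing rests, moved as follows. With RLE size factors they were 8 in G, 1 in M, 31 in T, 5 in GT and 22 in MT, 36, 63 and 79 for the average additions of Gata4, Mef2c and Tbx5, and 49 and 55 for any difference among 8 and among 7 groups. With total counts alone they were 3 in M, and 10 and 72 for the additions of Gata4 and Tbx5. With no filter they were 5 in G, 1 in M, 0 in T, GM and GT, 2, 8 and 9 for the additions, and 8 and 2 for any difference among 8 and 7 groups. With only the groups compared they were 8 in G, 78 in M, 6 in T, 9 in GM, 2 in GT, 52 in MT, 95 in GMT, and 7 and 43 for the additions of Mef2c and Tbx5; the average over 7 groups uses all groups and has no such fit. With DESeq2 they were 9 in G, 1 in M, 31 in T, 30 in MT, 42, 68 and 85 for the additions, 26 for the average of 7 groups, and 110 and 91 for any difference. The cause of these moves was not tested.

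With the replicate number as a block, 1 member was called in M, 8 in T and 7 in MT, and the other counts stayed within 1.5 times. Whether the numbers pair the samples is not given in the sources used here. Of 84 correlations between libraries of the same number, 25 were over 0.1. Their mean was 0.015, against -0.006 between different numbers, and 11 of 24 libraries correlated best with their own number. These values cannot settle whether the samples are paired. Leaving out libraries or replicate numbers gave 0 to 101 calls in G, 0 to 13 in M, 0 to 40 in T (3 to 45 by number), 0 to 9 in GM, 0 to 28 in GT, 0 to 129 in MT and 0 to 457 in GMT (4 to 457 with 1 library left out). GMT had 305, 20 and 0 without replicates 1, 2 and 3 of all groups, Mef2c had 32 without replicate 1, and any difference had 64 and 66 without replicate 1 and 17 among 8 groups without replicate 2. It gave 0 to 41, 0 to 129 and 0 to 113 for the additions of Gata4, Mef2c and Tbx5, 0 to 140 for the average of 7 groups, 4 to 117 among 8 groups and 3 to 96 among 7. With 1 library left out, the lowest counts came without Fibroblast replicate 3 in MT, GMT and the average of 7 groups, and without Fibroblast replicate 2 in T. Several libraries gave the lowest in G (Fibroblast replicate 3, G replicates 1 and 3), GT (Fibroblast replicate 3, GT replicate 3) and GM (Fibroblast replicates 2 and 3, GM replicate 3). The highest came without Fibroblast replicate 1 in M, GM, GT, MT and GMT, without G replicate 2 in G and for Tbx5, without T replicate 3 in T and for Mef2c, without T replicate 1 for Gata4 and among 8 and 7 groups, and without T replicate 2 for the average of 7 groups. Without Fibroblast replicate 3 the members' median log2 difference was 0.06 in G, 0.11 in M, 0.03 in GM and 0.02 for the average of 7 groups. Without replicate 3 of all groups that of GT was 0.07. The GMT median stayed between -0.55 and -0.19 under all 33 alternatives. For the 9 differences named under the averages, all 295 alternatives kept the direction, 231 kept the call and 64 lost it. The sequence windows planned around region centres were not run. The members' median count was 34 in GMT replicate 1, the lowest of all libraries.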
